A study of Mus musculus with 12 samples.

Results

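The genes described here are 9 regulators and early effectors of erythroid commitment: Gata1, Klf1, Epor, Zfpm1, Gfi1b, Nfe2, Car1, Car2 and Tfrc. They were taken by name from a table of 53465 genes measured by RNA-seq, and all 9 were found in it. The cells were LSKs (Lin- Sca-1+ c-Kit+), the bone marrow fraction that holds hematopoietic stem cells and multipotent progenitors, sorted after depletion of cells carrying lineage markers that include Ter-119. There were 12 libraries in 4 groups of 3: untreated Tespa1+/+ mice, untreated Tespa1-/- mice, and both genotypes at day 9 after 1 intraperitoneal dose of 150 mg/kg 5-fluorouracil (5-FU), a drug that kills cycling marrow cells. The mice were males of 8 to 10 weeks on a C57BL/6 background, the wild-type mice were labelled as littermates, and the Tespa1-/- mice were constitutive knockouts, so that LSKs and the marrow around them were both Tespa1-deficient. The labels do not say whether a library was 1 mouse or a pool, so each p-value measures the spread between libraries.

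Commitment to the red cell lineage rests on a small circuit in which the transcription factor GATA1, together with its cofactor FOG1 (encoded by Zfpm1), turns on KLF1 and the erythropoietin receptor while stem cell genes are turned off. Most LSKs have not entered this lineage, and low levels of these genes in LSKs are known as lineage priming. Red cell genes proper, such as globins and heme enzymes, follow later and outside the LSK gate.

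RefSeq promoter windows (GRCm38.p6, 250 bases before to 50 after a gene's start) were at hand for 6 of the 9 genes: Gata1, Klf1, Epor, Zfpm1, Gfi1b and Tfrc. The 4 below are those of the 3 genes with a GATA motif and of Gata1. The Gata1 window holds the KLF-like motif CCNCNCCC. Each of the 4 is printed on the strand of its gene, up to the first annotated exon. Capitals mark the GATA motif AGATAA, its variant TGATAA and CCNCNCCC, each on either strand (overlapping matches run together).
Klf1, chr8:84901732-84901927, plus strand: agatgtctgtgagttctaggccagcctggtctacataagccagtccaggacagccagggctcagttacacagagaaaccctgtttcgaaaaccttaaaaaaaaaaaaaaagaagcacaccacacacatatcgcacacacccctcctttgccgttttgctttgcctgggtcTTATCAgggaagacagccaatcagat
Epor, chr9:21963577-21963826, minus strand: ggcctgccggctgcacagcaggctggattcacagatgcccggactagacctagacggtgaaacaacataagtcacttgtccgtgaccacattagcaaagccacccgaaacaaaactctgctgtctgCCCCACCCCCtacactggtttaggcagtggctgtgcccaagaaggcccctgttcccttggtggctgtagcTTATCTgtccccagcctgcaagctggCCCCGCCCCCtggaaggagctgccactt
Gfi1b, chr2:28621983-28622232, minus strand: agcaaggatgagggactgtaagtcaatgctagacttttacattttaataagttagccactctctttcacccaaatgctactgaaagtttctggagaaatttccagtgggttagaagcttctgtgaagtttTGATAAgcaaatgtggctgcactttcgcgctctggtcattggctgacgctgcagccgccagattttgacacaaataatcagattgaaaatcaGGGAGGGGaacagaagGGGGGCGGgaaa
Gata1, chrX:7967911-7968160, minus strand: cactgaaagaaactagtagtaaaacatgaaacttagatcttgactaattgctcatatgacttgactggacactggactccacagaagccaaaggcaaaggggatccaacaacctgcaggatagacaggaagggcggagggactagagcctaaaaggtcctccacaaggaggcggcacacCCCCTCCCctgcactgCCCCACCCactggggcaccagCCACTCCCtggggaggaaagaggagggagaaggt

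The GATA match in Klf1 (TGATAA, read on the opposite strand) began 80 bases before the RefSeq start at 84901982, that in Epor (AGATAA, opposite strand) 54 bases before the RefSeq start at 21963576, and that in Gfi1b (TGATAA, same strand) 120 bases before the RefSeq start at 28621982. For Klf1 and Epor these starts differ from those of the gene models given below with the counts, that of Klf1 lying inside its model and that of Epor upstream. A GATA motif of either form was in the windows of 3 of the 6 genes, and in 18.6% of all 32851 promoter windows of the same 300 bases (11.2% for AGATAA, 9.05% for TGATAA). CCNCNCCC was in the windows of 5 of the 6, Klf1 being the exception, against 49.5% of all windows. TGAGTCA, the core bound by NF-E2 and AP-1, was in none of the 6 and in 5.20% of all windows. These are matches of letters, and with 6 genes they are a description only. The Gata1 window lies inside the annotated gene, whose farthest start is upstream.

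Library totals ran from 22118154 to 28275079 counts, and 3 counts, taken as the limit of detection, came to 0.106 to 0.136 CPM (counts scaled to the library size). Tespa1 was lower in Tespa1-/- libraries but not absent: it stood at 51.0, 43.1 and 46.5 CPM in untreated Tespa1+/+ LSKs, at 34.5, 34.9 and 34.9 CPM in untreated Tespa1-/- LSKs, at 47.1, 55.0 and 57.2 CPM in Tespa1+/+ LSKs after 5-FU and at 20.7, 19.6 and 17.2 CPM in Tespa1-/- LSKs after 5-FU. The deleted part of the gene is not stated in the sources used here, so counts over the whole gene check the labels only in direction. The sort marker Kit was present in every library, with a mean ± SD over 3 libraries of 413 ± 23.2 CPM in untreated Tespa1+/+ LSKs, its value being 340 ± 12 CPM after 5-FU in Tespa1-/- LSKs. Ly6a, which encodes Sca-1, ranged from 10.5 CPM in Tespa1-/- after 5-FU to 45.1 CPM in Tespa1+/+ after 5-FU.

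To ask how the erythroid program differed between genotypes after 5-FU, Tespa1-/- and Tespa1+/+ LSKs at day 9 were compared. Of the 9 genes, 8 rose in Tespa1-/- LSKs (quasi-likelihood test of edgeR, Benjamini-Hochberg adjustment over 17239 genes, adjusted p below 0.05, fold change above 1.5), whereas 3.95% of all genes tested were called higher and 3.03% lower. Nfe2 was the gene that did not pass, and 0 of the 9 were called lower in any comparison by edgeR, by DESeq2 or at an unadjusted p below 0.05 (here and below with the fold limit kept). In each of the 8, all 3 Tespa1-/- libraries lay above all 3 Tespa1+/+ libraries, a separation that 17.2% of all genes tested showed. Over the 9 genes the log2 fold change had a median of 0.78, against -0.01 for all genes tested. In bulk RNA, more cells that express a gene and more RNA per cell cannot be told apart.

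**Figure D1:**
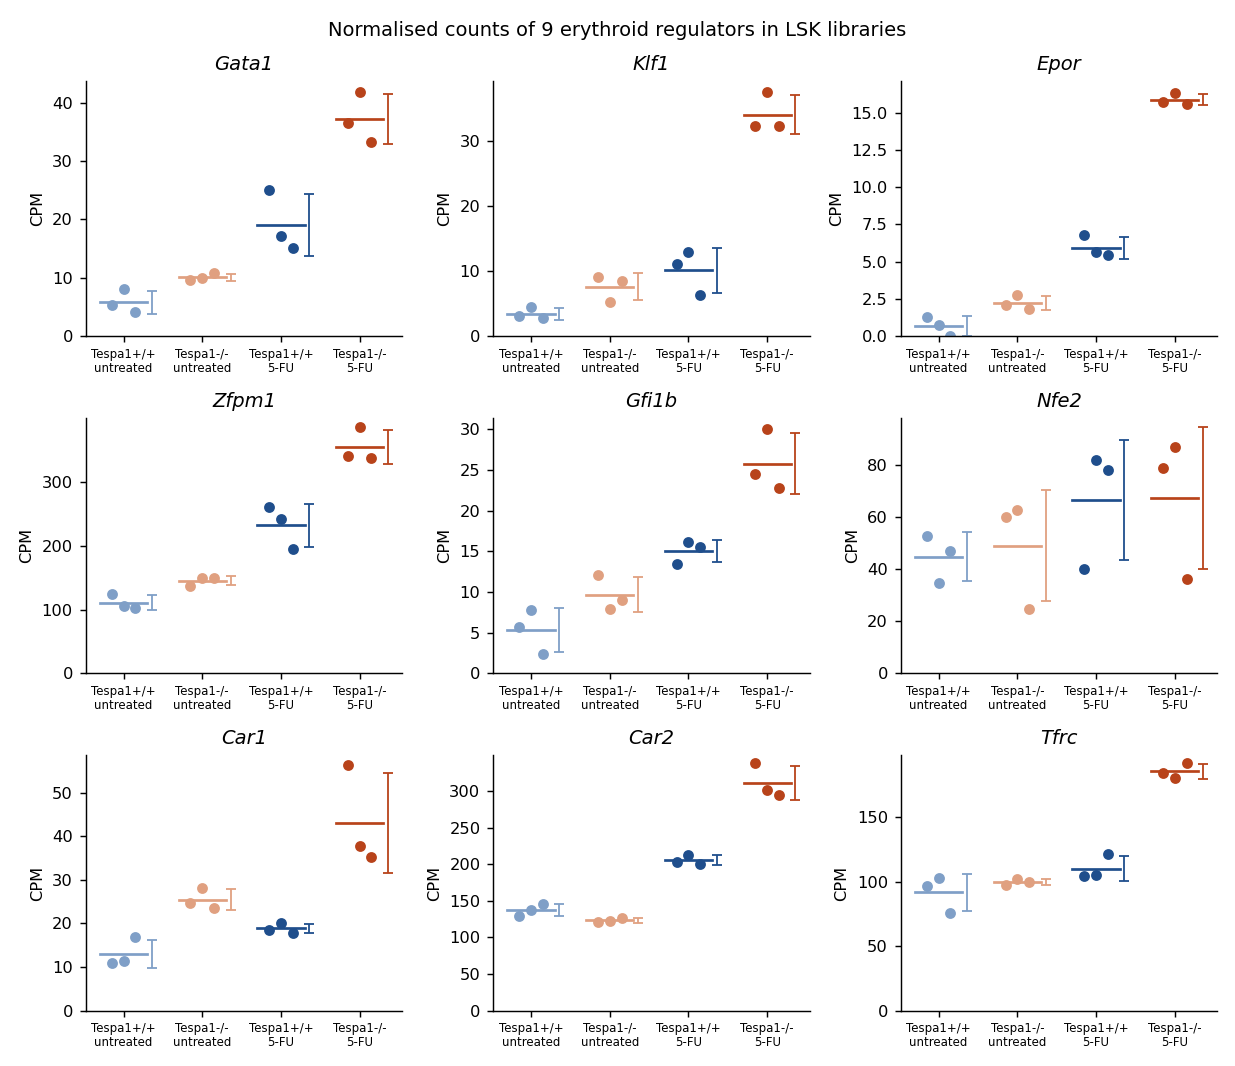
CPM of each of the 9 genes (vertical axes, linear, from 0) in each of the 12 libraries, by group; points are libraries, lines are means and bars are SD (n = 3). After 5-FU the Tespa1-/- points sit above the Tespa1+/+ points for every gene but Nfe2, and Car2 and Tfrc show no such rise without 5-FU.

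Gata1 (X:7959260-7978071, minus strand), the zinc finger factor at the head of the circuit, was measured at 5.29, 8.05 and 4.12 CPM in untreated Tespa1+/+ libraries, 9.62, 10.0 and 10.8 CPM in untreated Tespa1-/-, 25, 17.1 and 15.1 CPM in Tespa1+/+ after 5-FU, and 36.6, 41.8 and 33.3 CPM in Tespa1-/- after 5-FU. The 4 groups did not overlap and were ordered as listed. After 5-FU Gata1 was 1.95-fold higher in Tespa1-/- LSKs (log2 fold change 0.97, SE 0.19, edgeR adjusted p = 0.0103). Untreated, the log2 difference of 0.81 (SE 0.25) did not pass, with an edgeR adjusted p of 0.124, but it was called without untreated Tespa1+/+ replicate 2 (log2 1.12, edgeR adjusted p = 0.0310).

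Zfpm1 (8:122282141-122337251, plus strand) encodes FOG1, which binds GATA1 and is needed for many of its actions. Its libraries read 124, 106 and 102 CPM in untreated Tespa1+/+, 137, 149 and 150 CPM in untreated Tespa1-/-, 260, 241 and 194 CPM in Tespa1+/+ after 5-FU, and 340, 385 and 337 CPM in Tespa1-/- after 5-FU. Here too the 4 groups were ordered without overlap. The rise with genotype after 5-FU was 1.53-fold (log2 0.61, SE 0.10, edgeR adjusted p = 0.00408), just past the fold limit, and it fell under that limit without Tespa1+/+ 5-FU replicate 3 (log2 0.50) or without Tespa1-/- 5-FU replicate 2 (log2 0.55). The same comparison without 5-FU gave a log2 fold change of 0.41 (SE 0.08, edgeR adjusted p = 0.0216), below the fold limit.

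Klf1 (8:84901928-84905291, plus strand), which activates globin and membrane protein genes of the red cell, had the widest genotype gap after 5-FU. It read 3.06, 4.49 and 2.80 CPM in untreated Tespa1+/+, 9.13, 5.28 and 8.56 CPM in untreated Tespa1-/-, 11.1, 13.0 and 6.30 CPM in Tespa1+/+ after 5-FU and 32.3, 37.5 and 32.4 CPM in Tespa1-/- after 5-FU. The Tespa1-/- libraries after 5-FU stood far above all others, while untreated Tespa1-/- overlapped Tespa1+/+ after 5-FU. The fold change after 5-FU was 3.35 (log2 1.75, SE 0.24, edgeR adjusted p = 0.00147), and in untreated LSKs the log2 difference of 1.16 (SE 0.29, edgeR adjusted p = 0.0611) did not pass, although it did so by DESeq2 (adjusted p = 0.00944) and by edgeR with all 12 libraries in one fit (adjusted p = 0.0321) or with at least 10 counts in every library (adjusted p = 0.0495).

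Gfi1b (2:28609450-28621982, minus strand), a repressor required for red cells and platelets, was measured at 5.65, 7.83 and 2.44 CPM in untreated Tespa1+/+, 12.1, 7.98 and 9.00 CPM in untreated Tespa1-/-, 13.5, 16.1 and 15.5 CPM in Tespa1+/+ after 5-FU and 24.5, 30.0 and 22.8 CPM in Tespa1-/- after 5-FU. The groups were again ordered without overlap, but untreated Tespa1-/- replicate 2 stood close to the highest untreated Tespa1+/+ library. After 5-FU Gfi1b was 1.71-fold higher in Tespa1-/- LSKs (log2 0.78, SE 0.15, edgeR adjusted p = 0.0103).

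Nfe2 (15:103248212-103258403, minus strand), a leucine zipper factor of red cells and megakaryocytes, behaved apart from the other 8. It read 52.8, 34.6 and 47.1 CPM in untreated Tespa1+/+, 60.0, 62.6 and 24.7 CPM in untreated Tespa1-/-, 40.1, 81.8 and 78.2 CPM in Tespa1+/+ after 5-FU and 78.9, 86.9 and 36.4 CPM in Tespa1-/- after 5-FU. The groups overlapped in every comparison, and 1 library in each of 3 groups stood far below its replicates. The log2 fold change with genotype was 0.02 (SE 0.33, edgeR adjusted p = 0.981) after 5-FU and 0.14 (SE 0.31, edgeR adjusted p = 0.860) untreated. After 5-FU this SE was the widest of the 9, so that no change in Nfe2 was detectable at this spread.

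Epor (9:21958897-21963506, minus strand), the erythropoietin receptor that signals through JAK2 and STAT5, had the fewest counts of the 9. It read 1.31, 0.757 and 0 CPM in untreated Tespa1+/+, 2.11, 2.75 and 1.84 CPM in untreated Tespa1-/-, 6.77, 5.62 and 5.43 CPM in Tespa1+/+ after 5-FU, and 15.7, 16.3 and 15.6 CPM in Tespa1-/- after 5-FU. The 4 groups were ordered as listed without overlap, and untreated Tespa1+/+ rested on 36, 17 and 0 counts. The library with 0 counts, untreated Tespa1+/+ replicate 3, allows a level of up to 0.134 CPM, by counting error only. After 5-FU Epor was 2.67-fold higher in Tespa1-/- LSKs (log2 1.42, SE 0.18, edgeR adjusted p = 0.000871), and without 5-FU the log2 difference of 1.69 had an SE of 0.90 (edgeR adjusted p = 0.376). In a fit of all 12 libraries together neither Epor (adjusted p = 0.0767) nor Gfi1b (adjusted p = 0.103) passed after 5-FU by the same edgeR test, which left 6 of the 9.

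Car1 and Car2 encode cytosolic carbonic anhydrases, which convert carbon dioxide to bicarbonate in red cells. The genes are neighbours, Car1 at 3:14766216-14808368 on the minus strand and Car2 at 3:14886273-14900770 on the plus strand, with 77904 bases between them. Car1 is the more specific to the red cell lineage, and Car2 is also made in stem and progenitor cells and in many tissues.

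Car1 was measured at 10.9, 11.5 and 16.8 CPM in untreated Tespa1+/+, 24.7, 28.1 and 23.6 CPM in untreated Tespa1-/-, 18.6, 20.1 and 17.9 CPM in Tespa1+/+ after 5-FU and 56.3, 37.7 and 35.3 CPM in Tespa1-/- after 5-FU. Tespa1-/- libraries were higher than Tespa1+/+ libraries under both treatments, and untreated Tespa1-/- even stood above Tespa1+/+ after 5-FU. The genotype fold change was 2.29 after 5-FU (log2 1.20, SE 0.18, edgeR adjusted p = 0.00246) and 1.97 untreated (log2 0.98, SE 0.19, edgeR adjusted p = 0.0227). The untreated call was lost when any 1 library other than Tespa1+/+ replicate 3 was left out, with edgeR adjusted p up to 0.113, and with the replicate number as a block (edgeR adjusted p = 0.057).

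Car2 read 129, 137 and 145 CPM in untreated Tespa1+/+, 121, 122 and 127 CPM in untreated Tespa1-/-, 203, 213 and 201 CPM in Tespa1+/+ after 5-FU and 338, 302 and 294 CPM in Tespa1-/- after 5-FU. The untreated Tespa1-/- libraries were the lowest, though by a difference that was not called, and after 5-FU the Tespa1-/- libraries were the highest. The genotype log2 fold change was -0.14 (SE 0.07, edgeR adjusted p = 0.317) untreated and 0.60 (SE 0.06, edgeR adjusted p = 0.000336) after 5-FU, a 1.51-fold rise at the edge of the fold limit. It dropped under the limit without Tespa1+/+ 5-FU replicate 3 (log2 0.58), without Tespa1-/- 5-FU replicate 1 (log2 0.54) and with library totals in place of TMM factors (log2 0.57).

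Tfrc (16:32608920-32632794, plus strand) encodes the transferrin receptor CD71, the iron uptake route of erythroid and of dividing cells. Its libraries read 96.7, 103 and 75.3 CPM in untreated Tespa1+/+, 97.5, 102 and 99.5 CPM in untreated Tespa1-/-, 104, 105 and 121 CPM in Tespa1+/+ after 5-FU and 184, 180 and 192 CPM in Tespa1-/- after 5-FU. The last group stood far above the other 3, which lay close together, and the untreated groups overlapped. Tfrc was 1.69-fold higher in Tespa1-/- LSKs after 5-FU (log2 0.75, SE 0.07, edgeR adjusted p = 0.000198), and untreated its log2 fold change was 0.13 (SE 0.11, edgeR adjusted p = 0.588).

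To ask whether the genotypes already differed at steady state, the untreated groups were compared. Car1 was the 1 gene of the 9 called higher, where 0.973% of 17055 genes tested were called higher. In 6 of the 9 every Tespa1-/- library was above every Tespa1+/+ library, a pattern shown by 11.4% of genes tested. Car2 had a negative log2 fold change (-0.14, SE 0.07, edgeR adjusted p = 0.317) that was not called. Over the 9 genes the log2 fold change had a median of 0.81, against 0.01 for all genes tested. Removing the fold limit gave 2 calls, Zfpm1 joining Car1, and an unadjusted p below 0.05 with the fold limit kept gave 4, Gata1, Klf1, Gfi1b and Car1.

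**Figure D2:**
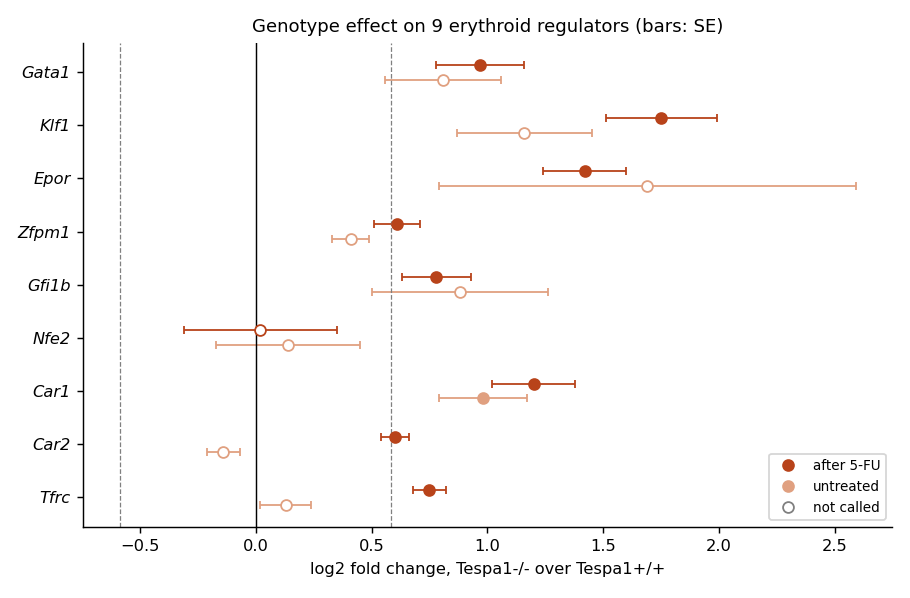
log2 fold change of Tespa1-/- over Tespa1+/+ LSKs (horizontal axis) for each gene, after 5-FU and untreated, with SE as bars; filled points passed the test, open points did not, and dashed lines mark 1.5-fold. Filled points are 8 of 9 after 5-FU and Car1 alone when untreated.

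A test of the interaction asks whether the genotype effect after 5-FU differed from that in untreated LSKs. It was called for 2 of the 9, Car2 and Tfrc, where 1.66% of 18696 genes tested were called in that direction. For Car2 the log2 ratio of the genotype fold changes was 0.74 (SE 0.09, edgeR adjusted p = 0.000505), and it stayed called with any 1 library left out. For Tfrc it was 0.63 (SE 0.14, edgeR adjusted p = 0.0183). That call was lost without untreated Tespa1+/+ replicate 2, untreated Tespa1-/- replicate 1, Tespa1+/+ 5-FU replicate 1 or 2, or Tespa1-/- 5-FU replicate 3. With library totals in place of TMM factors it was also lost, the log2 ratio of 0.58 being under the fold limit. Klf1 had a log2 ratio of 0.59 with an SE of 0.39 (edgeR adjusted p = 0.476), Zfpm1 0.21 (SE 0.14), Car1 0.22 (SE 0.28) and Gata1 0.16 (SE 0.33). It was negative for Epor (-0.24, SE 0.75), Gfi1b (-0.10, SE 0.43) and Nfe2 (-0.12, SE 0.52). For those 7 genes no difference between the 2 genotype effects was detectable at this spread.

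5-FU itself was compared with no treatment within each genotype. These comparisons share their libraries with the ones above, so their values are given side by side and are not a separate line of evidence. In Tespa1+/+ LSKs, 6 of the 9 rose, Gata1 (3.31-fold), Klf1 (2.97-fold), Epor (8.53-fold), Zfpm1 (2.11-fold), Gfi1b (2.86-fold) and Car2 (1.52-fold), where 2.74% of 17002 genes tested were called higher by edgeR. In 8 of the 9 the 5-FU libraries were all above the untreated ones, as in 13.2% of genes tested. The Epor fold is the least certain of these, its log2 value being 3.09 with an SE of 0.80 (edgeR adjusted p = 0.0475), since the untreated libraries held 0 to 36 counts. Epor was not called without untreated Tespa1+/+ replicate 2 or any 1 of the 5-FU libraries, or with the replicate block (edgeR adjusted p = 0.0661). Klf1 was not called without untreated replicate 1 or 3 or 5-FU replicate 1 or 2 (edgeR adjusted p up to 0.0896), and Gfi1b not without untreated replicate 1 or any 1 of the 5-FU libraries (edgeR adjusted p up to 0.113). Car2 fell under the fold limit without untreated replicate 1 (log2 0.55) or 5-FU replicate 2 (log2 0.58). Conversely, Car1 was called without untreated replicate 3 (log2 0.77, edgeR adjusted p = 0.0392) and Nfe2 without 5-FU replicate 1 (log2 0.85, edgeR adjusted p = 0.0296). The count of 6 fell to 2 without Tespa1+/+ 5-FU replicate 2 and to 3 without untreated Tespa1+/+ replicate 1.

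In Tespa1-/- LSKs, 8 of the 9 rose after 5-FU, where 6.0% of 17228 genes tested were called higher by edgeR, and in 8 the libraries were apart, as in 19.8% of genes tested. Epor rose 7.09-fold (log2 2.83, SE 0.20), Klf1 4.43-fold, Gata1 3.66-fold, Gfi1b 2.65-fold, Car2 2.52-fold, Zfpm1 2.43-fold, Tfrc 1.86-fold and Car1 1.69-fold. Nfe2 gave a log2 value of 0.45 (SE 0.38, edgeR adjusted p = 0.464). The Car1 call was lost without untreated Tespa1-/- replicate 1 or 3, or without Tespa1-/- 5-FU replicate 1.

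**Figure D3:**
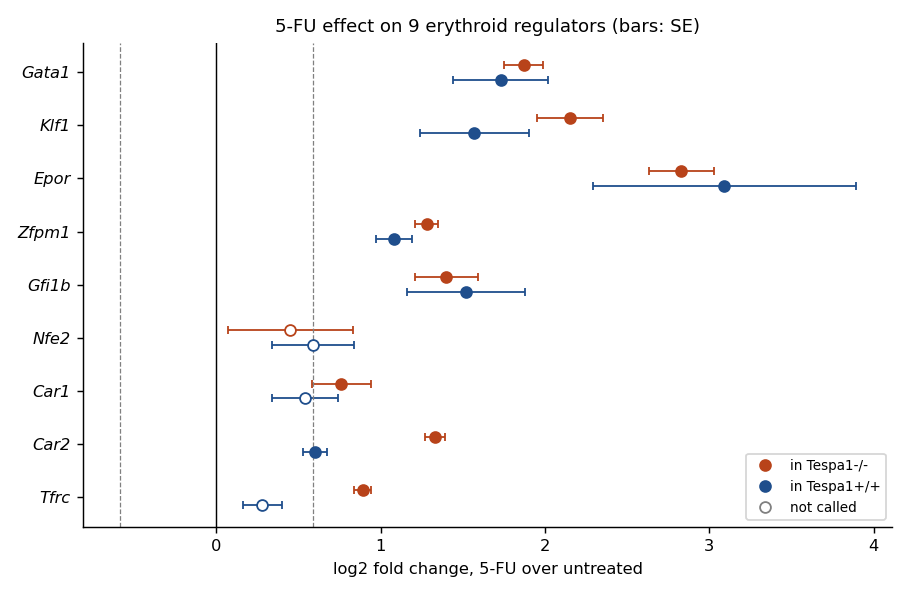
log2 fold change of 5-FU over untreated LSKs (horizontal axis) for each gene in each genotype, with SE as bars; filled points passed the test and dashed lines mark 1.5-fold. Epor lies farthest to the right in both genotypes, and Nfe2 is open in both.

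Levels of different genes were compared only as FPKM, the deposited value per length. In untreated Tespa1+/+ LSKs the order was Car2 (43.9 FPKM on average), Zfpm1 (22.2), Tfrc (9.32), Car1 (6.99), Nfe2 (4.78), Klf1 (2.21), Gata1 (2.07), Gfi1b (1.64) and Epor (0.30). Tfrc and Car1 overlapped between libraries, as did Klf1, Gata1 and Gfi1b. By group means Epor was the lowest and Car2 the highest in all 4 groups. In Tespa1-/- LSKs after 5-FU, Klf1 (22.3 FPKM) overlapped Car1 (23.6 FPKM) and stood above Tfrc (19.3 FPKM), Gata1 (13.5 FPKM), Gfi1b (8.14 FPKM) and Nfe2 (7.35 FPKM), the libraries of Nfe2 overlapping those of Gfi1b and of Epor (7.10 FPKM).

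**Figure D4:**
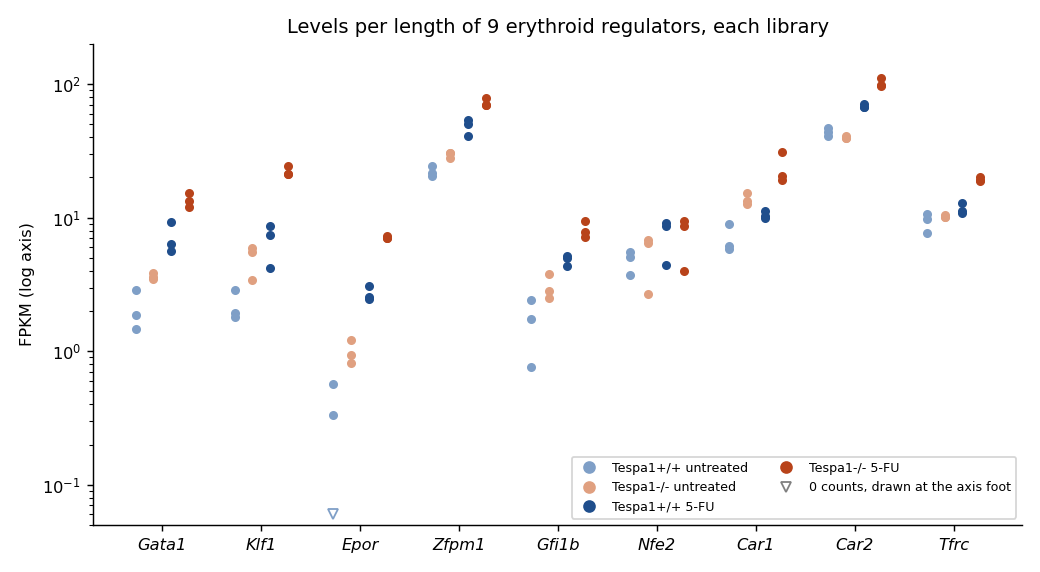
FPKM (vertical axis, logarithmic) of each of the 9 genes in each of the 12 libraries, with groups in colour; the open triangle at the foot is the 1 library with 0 counts of Epor. Car2 and Zfpm1 have the highest group means, and Epor the lowest, in every group.

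Genes downstream and beside these 9 were followed in gene lists. Of 31 later red cell genes (globins, heme enzymes, membrane proteins), 26 rose and 0 fell in Tespa1-/- LSKs after 5-FU by the edgeR test. A gene can pass the filter on low counts through the Tespa1-/- libraries after 5-FU alone, where it is high, and with at least 10 counts required in every library the count was 22. Their summed level was 330 to 348 CPM in Tespa1+/+ and 1438 to 1492 CPM in Tespa1-/- libraries after 5-FU. Slc4a1, the anion exchanger band 3, was at 0.0389, 0 and 0.823 CPM (1, 0 and 20 counts) in Tespa1+/+ libraries after 5-FU. In Tespa1-/- libraries after 5-FU it was far above, at 99.7, 88.2 and 91.7 CPM. Alas2 encodes the erythroid enzyme of the first step of heme synthesis. It went from 0.272, 0.192 and 0 CPM (7, 5 and 0 counts) to 13.2, 13.3 and 10.8 CPM. Hba-a2, an alpha globin, went from 0, 0.423 and 0 CPM (0, 11 and 0 counts) to 15.3, 18.1 and 24.6 CPM. Because alpha globin copies are near-identical, reads can be split between them and the level of Hba-a2 is uncertain. In untreated LSKs 6 of 26 tested later red cell genes rose, a count that was 10 with all 12 libraries in one fit, 3 with the replicate block and 2 to 5 with a library left out. After 5-FU 11 of 27 rose in Tespa1+/+ (5 to 9 with a library left out) and 29 of 31 in Tespa1-/- (22 with at least 10 counts in every library).

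Of 22 partners of GATA1 and stem or progenitor factors tested, Gfi1 (log2 1.27, SE 0.21) and Sox6 (log2 1.09, SE 0.25) rose in Tespa1-/- LSKs after 5-FU and 0 fell by edgeR, with a list median of -0.01. The count was 1 without Tespa1+/+ 5-FU replicate 1 or 2 or Tespa1-/- 5-FU replicate 2 or 3, and 3 were called lower with no fold limit. Gfi1 is a paralog of Gfi1b with a role in granulocytes, and Sox6 acts in erythroid maturation. In EPO receptor signalling 1 of 12 rose and 0 fell (median -0.05), the one being Cish (log2 0.59, SE 0.15, edgeR adjusted p = 0.0340), a STAT5 target that dampens the receptor. That count was 0 with RLE size factors, with library totals, with at least 10 counts in every library, with all 12 libraries in one fit, with the replicate block and without any 1 library other than Tespa1+/+ 5-FU replicate 1, and library totals gave 1 gene called lower. Socs3, another feedback inhibitor of cytokine receptors, went the other way: it read 209, 188 and 213 CPM in untreated Tespa1+/+, 99.6, 102 and 102 CPM in untreated Tespa1-/-, 109, 108 and 115 CPM in Tespa1+/+ after 5-FU and 76.2, 74.7 and 73.7 CPM in Tespa1-/- after 5-FU. Its libraries were lower in Tespa1-/- under both treatments, with a log2 value of -0.57 (SE 0.06, edgeR adjusted p = 0.00055) after 5-FU, just short of the fold limit, and a called fall untreated (log2 -0.99, SE 0.06, edgeR adjusted p = 8.04e-05). Erfe, which red cell precursors secrete, was at a log2 value of 2.52 (SE 0.89) and did not pass.

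Iron genes beside Tfrc numbered 12, of which 3 rose and 0 fell after 5-FU (median 0.27). They were Slc40a1, the iron exporter ferroportin (log2 2.63, SE 0.27), Steap3, a reductase of endosomal iron (log2 1.02, SE 0.23), and Slc11a2, the transporter that releases iron from endosomes (log2 0.76, SE 0.16). The count was 2 with the replicate block and without Tespa1+/+ 5-FU replicate 1 or 2 or Tespa1-/- 5-FU replicate 2 or 3. Of 13 other carbonic anhydrases 6 were tested. In Tespa1-/- LSKs after 5-FU 0 were called by edgeR, 0 by DESeq2 and 0 at an unadjusted p below 0.05, and the median was -0.46. Their levels were low, all 13 summing to 13.2 to 22.5 CPM in Tespa1-/- libraries after 5-FU. The SE was wide for Car7 (log2 -0.87, SE 0.78) and Car5b (log2 -0.59, SE 0.68), so rises like those of Car1 and Car2 could have been missed. Whether the family differed from Car1 and Car2 was not tested. Among the 6 tested, Car12, a membrane enzyme, was at a log2 value of -0.90 (SE 0.40) after 5-FU. It rose in untreated Tespa1-/- LSKs (log2 1.68, SE 0.27, edgeR adjusted p = 0.00960). That was the 1 call among these other family members there, and it was lost without untreated Tespa1-/- replicate 1 or 2.

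Genes of other lineages moved in the same libraries. The 12 neutrophil genes had a summed level of 3.77 to 8.98 CPM in Tespa1+/+ and 1128 to 1133 CPM in Tespa1-/- libraries after 5-FU, and 3 of them, Cd177, Fcnb and Retnlg, had 0 counts in the 3 Tespa1+/+ libraries after 5-FU. The 9 eosinophil genes stood at 5.33 to 7.20 CPM against 660 to 699 CPM, 4 of them with 0 counts in those Tespa1+/+ libraries. By edgeR 12 neutrophil and 7 eosinophil genes were called higher, and of 10 tested mast cell and basophil genes (44.4 to 51.7 CPM against 133 to 151 CPM) 6 were. Here too a gene can pass the filter through the Tespa1-/- libraries alone, so these counts carry no weight of their own, and with at least 10 counts required in every library they were 2, 1 and 4. Of 10 macrophage genes 2 rose (11.6 to 15.8 CPM against 39.9 to 44.0 CPM), a count that was 4 by DESeq2, with all 12 libraries in one fit or without Tespa1+/+ 5-FU replicate 1, and 1 without Tespa1-/- 5-FU replicate 1 or 2. Of 7 tested T cell genes 1 rose (2.76 to 5.64 CPM against 6.44 to 12.9 CPM), which was Cd3e, with 0 counts in the 3 Tespa1+/+ libraries after 5-FU. The T cell count was 2 by DESeq2 or without Tespa1+/+ 5-FU replicate 1 or 3, and 0 with at least 10 counts in every library, with the replicate block and without Tespa1-/- 5-FU replicate 1 or 2. Of 8 B cell genes 0 were called by edgeR, 0 by DESeq2 and 0 at an unadjusted p below 0.05 with the fold limit (287 to 297 CPM against 325 to 343 CPM), while 2 were called higher with no fold limit, 1 with no filter on low counts and 1 without Tespa1+/+ 5-FU replicate 2 or 3 or Tespa1-/- 5-FU replicate 3. The mast cell gene Tpsab1 had 0 counts in all 6 libraries after 5-FU. Apart from the B cell list, genes of each of these lists moved in the same comparison as the erythroid genes, and their part in it was not tested.

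Megakaryocyte genes share GATA1, FOG1, GFI1B and NF-E2 with the red cell lineage. Of 15 tested, 1 rose and 2 fell in Tespa1-/- LSKs after 5-FU, where 3.95% of all genes tested were called higher and 3.03% lower. Counts this small were not tested against those shares. The list median was 0.35, and the summed level was 307 to 326 CPM in Tespa1+/+ and 382 to 388 CPM in Tespa1-/-. After 5-FU against untreated, 6 of 12 tested rose in Tespa1+/+, where 2.74% of all genes tested were called higher. In Tespa1-/- 12 of 13 rose, where 6.0% of all genes tested were called higher. The genotype counts were 3 higher with no fold limit or without Tespa1+/+ 5-FU replicate 2 and 1 lower with no filter on low counts, with all 12 libraries in one fit and without Tespa1+/+ 5-FU replicate 3 or Tespa1-/- 5-FU replicate 1 or 3, while the count of 12 was 7 with all 12 libraries in one fit and without untreated Tespa1-/- replicate 3 or Tespa1-/- 5-FU replicate 1. Of 10 sort and stem cell markers 5 fell and 0 rose after 5-FU in Tespa1-/- LSKs, where 3.03% of all genes tested were called lower, with a median of -0.63 and a summed level of 1039 to 1120 CPM against 1588 to 1622 CPM in Tespa1+/+. Ly6a (log2 -1.24, SE 0.30), Hlf (log2 -1.16, SE 0.20) and Mecom (log2 -0.95, SE 0.14) were among those that fell. Kit (log2 -0.45, SE 0.04) did not reach the fold limit. The count of 5 was 6 with no fold limit and 4 without Tespa1+/+ 5-FU replicate 1 or 3 or Tespa1-/- 5-FU replicate 1 or 2. Of 18 proliferation genes 8 rose and 0 fell (median 0.56), where 3.95% of all genes tested were called higher. Their summed level was 4249 to 4301 CPM in Tespa1+/+ and 5475 to 5590 CPM in Tespa1-/-, and Plk1 (log2 0.92, SE 0.14) led them. The count of 8 was 12 with no fold limit, 9 with no filter on low counts and 7 with library totals. It was 6 to 9 with a library left out. In untreated Tespa1-/- LSKs 0 of 18 passed by edgeR, by DESeq2 or at an unadjusted p below 0.05 with the fold limit kept. Plk1 there had a log2 value of 0.41 (SE 0.13, edgeR adjusted p = 0.117). Tfrc, which also serves dividing cells, moved with this list, and the part of proliferation in its change was not tested.

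**Figure D5:**
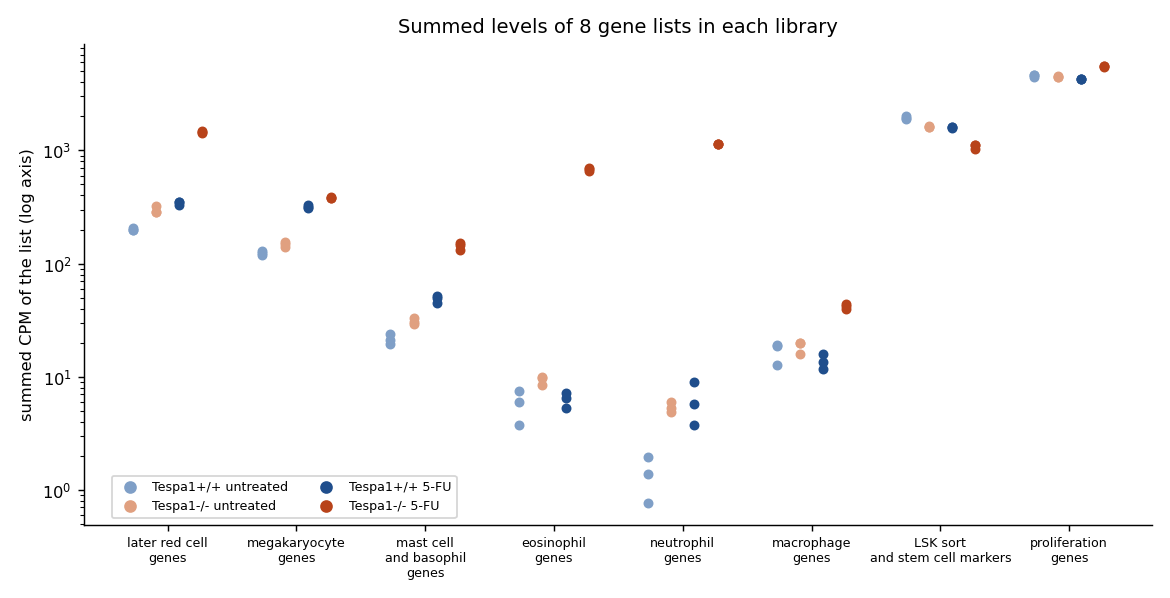
Summed CPM (vertical axis, logarithmic) of 8 gene lists in each of the 12 libraries, with groups in colour. The Tespa1-/- libraries after 5-FU stand above the other 3 groups for later red cell, megakaryocyte, mast cell and basophil, eosinophil, neutrophil, macrophage and proliferation genes and below them for sort and stem cell markers.

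The genes whose pattern over the 12 libraries was most like that of Gata1 were Tuba8 (root-mean-square difference of centred log2 CPM 0.25), Ptgr1 (0.27) and Cybb (0.28), among 14934 genes with a mean of at least 1 CPM. Those nearest to Klf1 were Trem3 (0.27), Cybb (0.30) and Elane (0.32). Cybb averaged 11.5, 18.9, 33.1 and 84.7 CPM in untreated Tespa1+/+, untreated Tespa1-/-, Tespa1+/+ after 5-FU and Tespa1-/- after 5-FU. The 12 points share their 4 groups, so nearness reflects the group order as well as anything within groups.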

How the data were processed

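LSKs were sorted from bone marrow and poly-A RNA was made into stranded paired-end libraries from RNA with an integrity number above 7.0. The processing notes name CASAVA 1.8, HISAT2, StringTie and edgeR with GRCm38. The use of strand in counting is not given in the sources used here. The authors deposited unnormalized counts of reads per gene, on which all tests were run, and FPKM (counts per gene length and library total), which the deposited table gives per library and which served only to compare levels between genes.

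Counts were filtered by filterByExpr (minimum count 10), scaled by TMM and tested with glmQLFit and glmQLFTest of edgeR 4.0.16 in R 4.3.3, fitting the 6 libraries of the groups compared, or all 12 with genotype by treatment for the interaction. p-values were adjusted by Benjamini-Hochberg over all genes tested, and a call needed both an adjusted p under 0.05 and more than a 1.5-fold change. Two-sided exact permutation tests on single genes cannot go below p = 0.1 with 3 libraries against 3, which was the value wherever groups did not overlap. CPM use TMM factors over the 12 libraries. The detection limit was 3 counts, and counting limits cover counting error only. Replicate libraries differed by more than sampling noise (mean chi-square per degree of freedom 10.5 to 20.4). Each was counted as 1 unit, although that spread does not show that libraries came from separate mice. Scripts were tested on simulated data. DESeq2 1.42.0, other scalings and filters, a replicate block and leave-one-out fits were the alternatives. Python with pandas, SciPy and matplotlib made tables and plots. Members and the 14 gene lists were chosen with earlier results of these data known. The genes named are the 9 members, from each list up to 3 with the greatest absolute genotype log2 fold change after 5-FU, Kit, Ly6a and Tespa1, and for Gata1 and Klf1 the 3 nearest patterns. Exons of the 9 genes overlap no other gene's exons in GENCODE M21. A planned description of protein features was not run.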

Additional observations from a re-analysis of the deposited data

Results flagged for a closer look

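Car2 and Tfrc were picked out because their genotype effects differed between treatments by the interaction test. The log2 ratio of the genotype fold changes, after 5-FU against untreated, was 0.74 for Car2 (SE 0.09, edgeR adjusted p = 0.000505) and 0.63 for Tfrc (SE 0.14, edgeR adjusted p = 0.0183). After 5-FU all 3 Tespa1-/- libraries were above all 3 Tespa1+/+ libraries for both genes, as in 17.2% of all genes tested. Untreated, neither difference was called (Car2 log2 -0.14, edgeR adjusted p = 0.317, and Tfrc log2 0.13, edgeR adjusted p = 0.588). Groups of 3 libraries are too small for a test of single libraries that stand apart.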

How the results depend on the processing

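Counts of genes called higher in Tespa1-/- against Tespa1+/+ after 5-FU (8) stayed between 6 and 8 under 9 alternatives and with each library left out, and in 5-FU against untreated in Tespa1-/- (8) between 7 and 8. In untreated LSKs (1) the count was 2 by DESeq2, with at least 10 counts in every library, with all 12 libraries in one fit and with no fold limit, 4 at an unadjusted p below 0.05 with that limit kept and 0 with the replicate block, and 0 to 1 with a library left out. In 5-FU against untreated in Tespa1+/+ (6) it was 2 to 6 with a library left out. For the interaction (2) it was 1 with library totals without TMM and 1 to 2 with a library left out. Reversed signs came from Nfe2 after 5-FU (-0.01 with library totals, -0.01 with the replicate block, -0.24 to 0.32 with a library left out) and untreated (-0.07 to 0.46), and from interaction values with a library left out: Gata1 -0.15 to 0.39, Epor -1.12 to 0.31, Gfi1b -0.49 to 0.24, Nfe2 -0.44 to 0.16 and Car1 -0.03 to 0.35. None of these was called in the main test, and the cause was not tested. The replicate numbers do not pair the libraries, since the 18 same-number correlations ran from -0.065 to 0.048 and 10 of 36 were highest for their own number. Depth limits Epor in untreated LSKs, which rests on at most 62 counts a library.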
